A study of Mus musculus with 12 samples.

Results

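The 43 imprinted genes examined here are mouse genes that are transcribed mainly from the copy of one parent, together with the regions that control them. They were chosen by name. Each gene was read over a window from 5 kb outside one end of the gene body through 5 kb outside the other, and all 43 of 43 had a measured window, against 30223 of 49554 genes of the annotation on the autosomes and X. The windows held 2508 CpGs with at least 10 methylation calls in each of the 12 libraries, of 1052856 such CpGs in all, and 183 of 87020 tiles of 1000 bp with at least 3 of these CpGs. For 20 of the genes the window overlapped that of another gene of the set, so that some CpGs count for several genes.

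The libraries are reduced representation bisulfite sequencing (RRBS) of CMM cells, a GFP-marked mouse model of acute myeloid leukaemia with inv(16), grown in C57BL/6 mice after intravenous transfer. Once GFP-positive leukaemia cells made up about 1% in blood, the mice were injected intravenously 3 times on alternate days, and their spleens were collected a day later. PBS mice gave 4 libraries of GFP-positive cells that were not divided by CD11b, and mice given CpG-STAT3dODN, which links a TLR9-activating oligonucleotide to a decoy for the transcription factor STAT3, gave 4 libraries of GFP-positive CD11b-negative and 4 of GFP-positive CD11b-positive cells. CD11b is a surface integrin of myeloid cells, and the study asked how DNA methylation differs in the CD11b-positive subset. Because the PBS cells were not sorted on CD11b, the effect of treatment and that of choosing cells by CD11b cannot be told apart in a comparison with PBS, and neither can a change within cells and a change in the mixture of cells. Whether each library is a separate mouse is not stated, and p-values then reflect the variation among libraries alone, which may be technical.

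Imprinted genes carry DNA methylation on one parental copy only, so a region whose imprint is intact reads near 50% when both copies are sequenced alike. Germline imprints are laid down in egg or sperm and are kept through development by KRAB zinc finger proteins such as ZFP57, which binds a methylated core motif and brings in TRIM28 and DNMT1. Secondary imprints arise after fertilisation under the control of a germline region nearby and are known to vary more between tissues. RRBS reads the methylation of both copies together and does not assign a read to a parent.

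Total calls ran from 112671408 to 157223205 per library, and a common CpG had a median of 71 to 99 calls. The libraries differed in breadth. CpGs with any call on the autosomes and X numbered 2826185 to 3373246 in PBS, 2951358 to 6500217 in CD11b-negative and 3706073 to 6823989 in CD11b-positive libraries. Every CD11b-positive library lay above every PBS library in this number, and library 2 was the highest of both sorted groups. Mean methylation over all common CpGs was 31.4% ± 0.292 in PBS, 33.1% ± 1.59 in CD11b-negative and 34.7% ± 0.810 in CD11b-positive libraries (SD, n = 4 each). Library 2 stood apart in both sorted groups. It read 35.5% in the CD11b-negative group (others 32.1% to 32.5%) and 35.9% in the CD11b-positive group (others 34.2% to 34.5%). Calls on 8 genes of the Y chromosome, per 1000000 autosomal calls, numbered 5.52, 18.6, 8.25 and 11 in PBS libraries 1 to 4, 12.9, 40.2, 11.1 and 8.64 in the CD11b-negative ones, and 25.0, 41.3, 23.8 and 23.8 in the CD11b-positive ones. The CD11b-positive libraries all lay above every PBS library in this share, and the libraries numbered 2 were the highest of each group. Fits with this share as a term are given with the results.

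Promoter sequences were available from RefSeq for 33 of the 43 genes (47 promoters, build GRCm38.p6, the build of the mm10 files), and 19 of these held at least 3 measured CpGs in the 250 bases before the start. The 6 below show the kinds of region that the results turn on, each 5′ to 3′ on the strand of its gene, with the CpGs measured in all 12 libraries in capitals. Plagl1 (chr10:13090582-13090831, plus strand), Zrsr1 (chr11:22971755-22972004, plus) and Igf2r (chr17:12769707-12769956, minus) kept a middle level in the 3 groups, Dio3 (chr12:110278980-110279229, plus) had a lower mean in CD11b-positive cells, Slc22a3 (chr17:12507705-12507954, minus) a higher one, and Mcts2 (chr2:152686898-152687147, plus) was almost fully methylated throughout.
Plagl1: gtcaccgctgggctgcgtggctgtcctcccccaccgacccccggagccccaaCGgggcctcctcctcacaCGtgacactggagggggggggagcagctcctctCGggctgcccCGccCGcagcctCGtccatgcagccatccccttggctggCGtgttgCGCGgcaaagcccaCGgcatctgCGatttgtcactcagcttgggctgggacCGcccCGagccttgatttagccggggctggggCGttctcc
Zrsr1: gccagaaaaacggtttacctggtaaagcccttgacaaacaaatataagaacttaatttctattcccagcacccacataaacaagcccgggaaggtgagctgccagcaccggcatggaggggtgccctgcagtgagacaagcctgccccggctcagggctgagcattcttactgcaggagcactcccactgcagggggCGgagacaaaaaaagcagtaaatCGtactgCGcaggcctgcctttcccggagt
Igf2r: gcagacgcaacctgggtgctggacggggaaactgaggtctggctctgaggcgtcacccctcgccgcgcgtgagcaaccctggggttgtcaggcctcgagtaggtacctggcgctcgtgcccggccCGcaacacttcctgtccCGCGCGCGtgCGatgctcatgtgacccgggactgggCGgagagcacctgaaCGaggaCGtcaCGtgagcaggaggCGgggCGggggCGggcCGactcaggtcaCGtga
Dio3: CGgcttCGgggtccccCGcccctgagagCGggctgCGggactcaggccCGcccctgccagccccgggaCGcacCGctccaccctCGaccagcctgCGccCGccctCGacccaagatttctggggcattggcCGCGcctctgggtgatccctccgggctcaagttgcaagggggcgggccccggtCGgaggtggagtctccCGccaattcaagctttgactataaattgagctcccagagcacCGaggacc
Slc22a3: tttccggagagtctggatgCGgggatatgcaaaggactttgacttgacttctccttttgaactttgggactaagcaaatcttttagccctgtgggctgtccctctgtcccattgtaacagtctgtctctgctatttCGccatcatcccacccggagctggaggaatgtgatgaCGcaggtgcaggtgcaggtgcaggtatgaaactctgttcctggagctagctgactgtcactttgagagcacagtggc
Mcts2: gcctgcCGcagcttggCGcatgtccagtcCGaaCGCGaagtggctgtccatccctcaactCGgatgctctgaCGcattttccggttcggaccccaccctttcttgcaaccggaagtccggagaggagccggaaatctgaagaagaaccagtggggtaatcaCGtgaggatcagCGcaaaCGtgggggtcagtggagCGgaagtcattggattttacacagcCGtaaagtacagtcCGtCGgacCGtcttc

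Over the capital CpGs of the Plagl1 promoter, methylation was 43% ± 4.35 in PBS, 42.96% ± 6.44 in CD11b-negative and 45.4% ± 6.62 in CD11b-positive libraries (SD, n = 4, as for each mean below). Zrsr1 read 53.3%, 52.3% and 53.8% in the same order, and Igf2r read 50.03%, 50.2% and 55.2%. At the Dio3 promoter the level was 51.7% ± 6.94 in PBS, 40.3% ± 24.3 in CD11b-negative and 23.8% ± 12.7 in CD11b-positive libraries. The Slc22a3 promoter went the other way, from 6.22% ± 2.38 through 27.8% ± 20.9 to 33.6% ± 13.5. Mcts2 stood at 94.8%, 95.1% and 94.9%. The core motif of ZFP57, TGCCGC, searched on both strands, occurred in 8 of the 47 promoters (17.0%), those of Plagl1 and Mcts2 among them and 2 of Mest that start 3 bases apart and share their matches, and in 8.73% of 32619 promoters of the same length. A match describes these letters only.

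The mean PBS level sorted the tiles into those near 50% (35% to 65%), low (under 20%), high (over 80%) and between. Of the 183 tiles at imprinted genes, 72 (39.3%) were near 50%, 35 low, 37 high and 39 between, against 21.5% near 50% among all 87020 tiles. With at least 10 CpGs in a tile, 31 of 72 tiles at imprinted genes were near 50% (43.1%), against 2278 of 25473 tiles in all (8.94%). In tiles of 3 to 9 CpGs the shares were 36.9% and 26.7%. At the edges of the band, a Grb10 tile at 33.3% and a Kcnq1 tile at 65.3% lay just outside, and a Kcnq1 tile at 35.8% and one shared by Gnas and Nespas at 63.5% just inside.

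**Figure D1:**
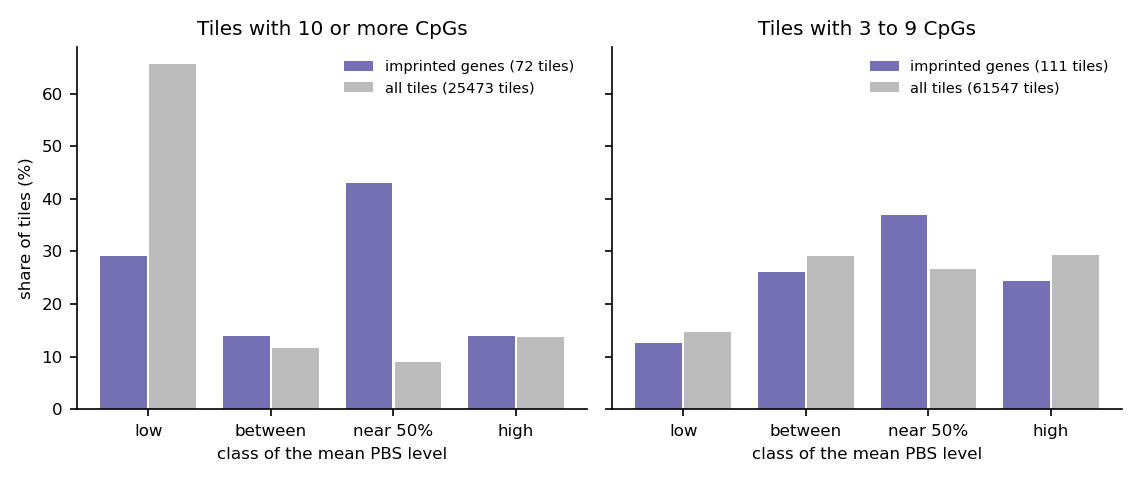
Share of tiles (y axis, %) in each class of mean PBS methylation (x axis), for the imprinted genes (violet) and all tiles (grey), with dense tiles on the left and sparse ones on the right. Among dense tiles 43.1% of those at imprinted genes but 8.94% of all lie near 50%, and most of the rest of the genome lies low.

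Neighbouring near-50% tiles joined into 50 stretches, of which 19 held a tile with at least 10 CpGs. Of these 19, 11 lie at textbook germline control regions, a grouping made with the values known. Across those 11 the CD11b-positive mean differed from the PBS mean by between -7.78 and 7.86 points and the CD11b-negative mean by between -5.65 and 4.84 points. The other 8 stretches ranged from -30.6 to 18.5 points for CD11b-positive against PBS. The CD11b-positive and PBS libraries overlapped in 10 of the 11 and in 5 of the 8, and all 12 libraries stayed from 35% to 65% in 5 of the 11 and in 3 of the 8. These ranges leave out stretches of sparse tiles, such as that at the Airn start, and imprinted regions outside the band in PBS. Among the regions outside the band, a Nap1l5 tile of 15 CpGs at 78.4% in PBS differed by -14.6 points in CD11b-positive libraries. The Mcts2 promoter read 94.8% in PBS and 94.9% in CD11b-positive libraries.

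**Figure D2:**
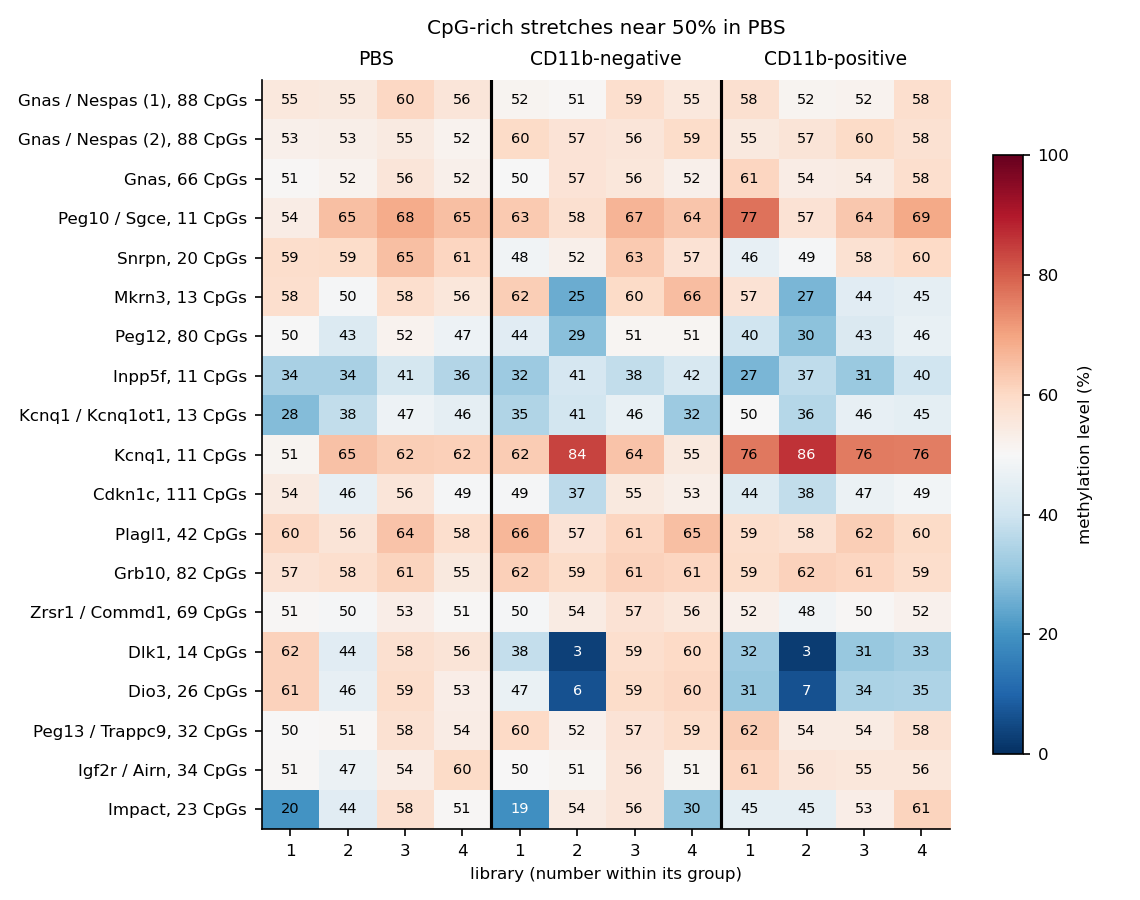
Methylation level (colour and printed value, %) of the 19 CpG-rich stretches near 50% in PBS (rows, in genome order, with their number of CpGs) in each of the 12 libraries (columns). Most rows stay pale across all 3 groups, while the Dlk1 and Dio3 rows turn blue in the CD11b-positive libraries and in CD11b-negative library 2, where the Dlk1 row reads 3.49%.

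Among the germline regions, the Zrsr1 stretch (chr11:22971001-22975000, 69 CpGs, 7364 to 13218 calls per library) covers the start of Zrsr1, a paternally expressed splicing factor gene that lies inside Commd1. PBS libraries 1 to 4 read 50.7%, 49.5%, 53.4% and 50.7%, the CD11b-negative libraries 49.6%, 54.2%, 57.0% and 55.8%, and the CD11b-positive ones 52.5%, 48.2%, 50.4% and 52.3%. The groups overlapped, and all 12 values lay near 50%. The Grb10 stretch (chr11:12025001-12027000, 82 CpGs) lies inside Grb10, which codes for an adaptor that restrains insulin receptor signalling. It read 57.1%, 58.3%, 61.2% and 55.1% in PBS, 62.0%, 59.4%, 61.3% and 60.9% in CD11b-negative and 59.3%, 61.7%, 60.8% and 58.8% in CD11b-positive libraries. These 12 values span 6.89 points, and the groups overlapped.

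Plagl1 encodes a zinc finger protein that restrains growth, and its stretch (chr10:13090001-13092000, 42 CpGs) spans the gene start shown above. It read 60.4%, 56.3%, 64.1% and 58.2% in PBS, 66.5%, 56.9%, 60.9% and 64.9% in CD11b-negative and 58.7%, 57.6%, 62.2% and 59.8% in CD11b-positive libraries, again with overlap. At Peg13, a noncoding RNA inside Trappc9, the stretch chr15:72809001-72811000 averaged 53.0% ± 3.41, 56.9% ± 3.38 and 57.2% ± 3.90 in PBS, CD11b-negative and CD11b-positive libraries. The Gnas locus, which codes for the stimulatory G protein alpha subunit and several transcripts of opposite imprinting, held 3 stretches. The one at the Nespas and extra-large transcripts (chr2:174297001-174301000, 88 CpGs) averaged 53.0% ± 1.17, 57.8% ± 1.80 and 57.1% ± 2.01. Here each CD11b-positive library lay above each PBS library, by a small margin, and 1 of its 4 tiles passed the test (chr2:174298001-174299000, 45.01% in PBS and 55.8% in CD11b-positive cells, adjusted p = 0.00461). Its difference of 10.8 points was 9.91 without CD11b-positive library 1 and 9.41 without library 2, both under the minimum of 10 points for a call. The stretch before the somatic Gnas promoter (chr2:174327001-174329000) averaged 52.8%, 53.6% and 56.7%, and the one at the Nesp start (chr2:174284001-174288000), a secondary imprint, averaged 56.7%, 54.1% and 54.9%.

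Snrpn, the paternally expressed splicing protein gene of the Prader-Willi region, held a stretch at one of its starts (chr7:60004001-60006000, 20 CpGs). PBS libraries read 58.9%, 59.2%, 65.1% and 60.6%, CD11b-negative libraries 48.4%, 52.5%, 63.0% and 57.2% and CD11b-positive libraries 45.7%, 49.4%, 57.6% and 59.9%. The groups overlapped over the stretch, and 1 of its 2 tiles (8 CpGs) fell, from 58.7% ± 4.40 to 47.3% ± 3.98 (adjusted p = 0.0202). That call was lost without PBS library 1, 2 or 3 (adjusted p = 0.0565, 0.0503 and 0.0606). Peg10 and Sgce share a start region (11 CpGs) that read 53.9%, 65.1%, 68.4% and 65.1% in PBS, 63.1%, 58.1%, 67.1% and 64.0% in CD11b-negative and 77.1%, 57.4%, 63.6% and 69.1% in CD11b-positive libraries, with overlap. The stretch at the start of Kcnq1ot1, the noncoding RNA that silences genes beside Kcnq1, lay lower (13 CpGs), with 28.4%, 37.5%, 47.3% and 45.5% in PBS, 34.8%, 41.0%, 46.1% and 31.7% in CD11b-negative and 49.6%, 35.9%, 46.0% and 44.9% in CD11b-positive libraries. Impact, a regulator of the translation kinase GCN2, varied widely within groups, from 20.1% to 58.2% over the PBS libraries and from 19.5% to 56.0% over the CD11b-negative ones. At Inpp5f, a phosphoinositide phosphatase gene, the means were 36.1%, 38.3% and 34.0%.

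Methylation fell at Dlk1 and Dio3. These genes are the protein-coding ends of a cluster on chromosome 12 in which the paternal copy of the control region is methylated. Dlk1 encodes a membrane ligand related to Notch ligands and Dio3 the deiodinase that inactivates thyroid hormone. The stretch before the Dlk1 start (chr12:109450001-109451000, 14 CpGs, 801 to 1474 calls per library) read 61.6%, 44.5%, 58.0% and 56.4% in PBS libraries 1 to 4. The CD11b-negative libraries read 37.97%, 3.49%, 58.5% and 59.8%. The CD11b-positive libraries read 32.0%, 2.63%, 30.9% and 32.8%. All 4 CD11b-positive libraries lay below all 4 PBS libraries, and library 2 of both sorted groups was almost without methylation. The difference of CD11b-positive from PBS was -30.6 points (adjusted p = 0.00714). The Dio3 stretch (chr12:110277001-110280000, 26 CpGs) joins the tiles on both sides of the tile chr12:110278001-110279000, whose CpGs are not counted in it. Most of the promoter shown above lies in the later of the joined tiles, so promoter and stretch largely share their CpGs. There PBS libraries read 61.4%, 45.7%, 58.7% and 53.4%, CD11b-negative libraries 46.6%, 6.49%, 59.1% and 60.3% and CD11b-positive libraries 31.2%, 6.500%, 34.1% and 34.7%. Again all CD11b-positive libraries lay below all PBS libraries, and both tiles fell in CD11b-positive cells. A tile in Dlk1 with 44 CpGs (chr12:109453001-109454000) fell from 66.8% ± 8.20 to 33.0% ± 18.7, and one before Dio3 with 73 CpGs (chr12:110278001-110279000) from 65.5% ± 6.97 to 33.8% ± 20.3. With the share of Y calls as a further term these differences were -2.07 points for Dlk1 and 3.73 points for Dio3, and neither passed the test. The Dio3 tile also missed it with all 12 libraries in 1 fit (adjusted p = 0.0552) and by edgeR (adjusted p = 0.0535).

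In the same 2 libraries, CD11b-negative 2 and CD11b-positive 2, the 11 germline stretches ran from 41.0% to 59.4% and from 35.9% to 61.7%. The lowest of the other 8 stretches stood at 3.49% and 2.63%, and the highest, beside Kcnq1, at 83.8% and 86.1%.

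Between Dlk1 and Dio3, the noncoding RNA genes Meg3 and Rian and the retrotransposon-derived gene Rtl1 held tiles that moved in both directions. At the Meg3 start a tile of 9 CpGs averaged 59.4% ± 6.34 in PBS, 52.4% ± 6.61 in CD11b-negative and 49.8% ± 8.47 in CD11b-positive libraries, which did not pass the test, and the tile before it fell from 74.3% ± 6.65 to 59.99% ± 6.63 (adjusted p = 0.0202). A tile shared by Meg3 and Rtl1, with 3 CpGs, rose from 41.3% ± 5.03 to 66.0% ± 8.64 (adjusted p = 0.00406). Rian held a tile of 3 CpGs (chr12:109611001-109612000) that read 14.7%, 19.4%, 15.8% and 27.3% in PBS, 36.7%, 76.8%, 17.5% and 37.9% in CD11b-negative and 52.6%, 76.6%, 49.6% and 47.7% in CD11b-positive libraries. CD11b-positive values lay above all PBS values, and the tile rose by 37.3 points (SE 7.31, adjusted p = 0.00334). The whole windows of Meg3, Rian and Rtl1 differed from PBS by 1.78, 8.41 and 9.54 points, below the 10 points needed for a call. The germline control region before Meg3 lies outside the windows and was not analysed here.

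The remaining stretches outside germline regions were those of Igf2r, Mkrn3, Peg12, Cdkn1c and Kcnq1. Igf2r encodes the receptor that clears IGF2, and the stretch at its start (chr17:12769001-12770000, 34 CpGs) averaged 52.7% ± 5.30, 52.2% ± 2.75 and 56.9% ± 2.45 in PBS, CD11b-negative and CD11b-positive libraries, with overlap. Mkrn3, a ring finger gene linked to the onset of puberty, read 58.3%, 49.6%, 58.3% and 55.8% in PBS, 62.1%, 25.3%, 59.6% and 65.6% in CD11b-negative and 57.1%, 27.2%, 44.3% and 45.4% in CD11b-positive libraries over its stretch, where library 2 of both sorted groups was the lowest. Peg12, a single-exon gene of the same region, averaged 48.0% ± 3.77, 43.8% ± 10.3 and 39.7% ± 7.12, and 1 of its 2 tiles fell, by 10.04 points (adjusted p = 0.0114). Without CD11b-positive library 2 the Peg12 tile differed by -7.55 points, and without PBS library 1 or 3 by -8.91 and -9.61. Cdkn1c codes for the cell cycle inhibitor p57, and its stretch (chr7:143459001-143466000, 111 CpGs) averaged 51.4% ± 4.79, 48.5% ± 8.04 and 44.3% ± 4.79 with no tile called. Beside the end of Kcnq1, a potassium channel gene, the stretch chr7:143428001-143429000 (11 CpGs) rose. It read 51.4%, 64.6%, 62.5% and 61.7% in PBS, 62.5%, 83.8%, 64.1% and 54.8% in CD11b-negative and 76.4%, 86.1%, 76.0% and 75.8% in CD11b-positive libraries, and no CD11b-positive library overlapped a PBS library (adjusted p = 0.00323). Only 1 of the 11 CpGs of this stretch lay from 35% to 65% in PBS (SD over CpGs 32.7 points), so its mean joins low and high CpGs.

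Set beside the rest of the genome, a smaller share of the CpG-rich tiles near 50% in PBS was called at imprinted genes. The class uses the PBS values, so these counts describe the tiles and test nothing. Of the 31 such tiles, 5 (16.1%) were called for CD11b-positive against PBS, 2 higher and 3 lower. Over the genome 83.1% of the 2278 tiles of the class were called, 869 higher and 1023 lower, so losses were the commoner direction in the class. The median absolute difference was 4.19 points at imprinted genes and 20.5 points over the class. Within PBS, the CpGs of a tile also lay closer together at imprinted genes, with a median SD over CpGs of 9.97 points against 18.5. In all 12 libraries 14 of the 31 tiles (45.2%) and 142 of the 2278 (6.23%) stayed from 35% to 65%. In CD11b-negative library 2 the band held 23 of 31 tiles (74.2%) but 11.3% of the class, and in CD11b-positive library 2 likewise 74.2% and 11.2%. Sparse near-50% tiles, with 3 to 9 CpGs, were called in 23 of 41 cases at imprinted genes (56.1%, 21 higher and 2 lower). Over the genome 83.3% of such tiles were called, 12950 higher and 714 lower.

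**Figure D3:**
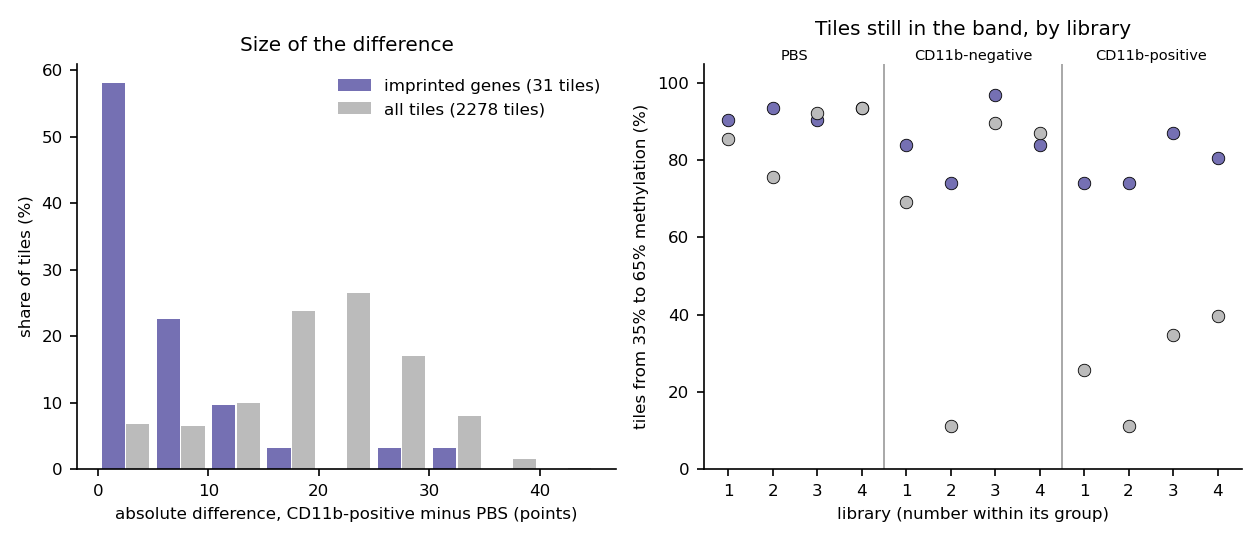
Tiles with at least 10 CpGs near 50% in PBS, at imprinted genes (violet, 31) and over the genome, autosomes and X (grey, 2278). Left, share of tiles (%) by absolute difference between CD11b-positive and PBS means in bins of 5 points; right, share of tiles (%) from 35% to 65% in each library. The imprinted tiles stay at 74.2% or more in every library, and the genome falls to 11.3% and 11.2% in the sorted libraries numbered 2.

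Several regions at the imprinted genes lay far from 50% in PBS, and not all of them are control regions. A level far from 50% here therefore does not by itself mark a lost imprint. The stretch before the somatic Gnas promoter, for instance, averaged 52.8% in PBS, although that promoter was almost unmethylated. Mcts2, a paternally expressed retrogene inside H13, held tiles at 97.1% ± 0.461 and 94.0% ± 0.790 in PBS and at 97.4% ± 1.51 and 94.2% ± 1.15 in CD11b-positive libraries. Nnat, which encodes a small membrane protein of the brain, was at 71.9% ± 4.10 in PBS and 71.2% ± 8.27 in CD11b-positive libraries over its methylated tile with the most CpGs. A sparser Nnat tile (chr2:157561001-157562000, 5 CpGs) lay near 50%, with 4 of its CpGs from 35% to 65% in PBS. It averaged 56.1%, 52.8% and 58.5% in PBS, CD11b-negative and CD11b-positive libraries, with overlap and without a call. The somatic Gnas promoter was almost unmethylated (0.297%, 0.503% and 0.407% in PBS, CD11b-negative and CD11b-positive libraries). So were the windows of Ube3a, the ubiquitin ligase gene of Angelman syndrome (0.620%, 0.506% and 0.422%), and of Phlda2, a restrainer of placental growth (2.84%, 3.47% and 4.21%). The Igf2 window, for a fetal growth factor, averaged 17.6%, 16.9% and 17.7%, and its tile with most CpGs (73) read 4.38% in PBS and 2.97% in CD11b-positive cells. Rasgrf1, a Ras activator gene, averaged 26.1%, 24.3% and 29.4% over its window, and its germline control region lies outside that window and was not analysed here. Peg3, a zinc finger gene of brain and placenta, had 1 near-50% tile of 3 CpGs at the start it shares with Usp29 (48.0% ± 2.49 in PBS and 43.1% ± 4.22 in CD11b-positive libraries), and Mest, a hydrolase gene, had 2, with 9 and 3 CpGs (45.2% ± 7.89 and 37.9% ± 3.23 in PBS).

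Over whole windows, CD11b-positive cells differed from PBS at 9 of the 43 genes, 5 higher and 4 lower, where 29.3% of all 30223 windows were called (25.9% higher and 3.42% lower). To be called, a window had to pass an adjusted p of 0.05 and differ by 10 points or more. The median difference was 2.07 points over the 43 windows and 4.0 over all windows, and the libraries of the groups did not overlap at 16 of 43 windows (37.2%) and at 55.1% of all. Among genes of maternally methylated regions expressed from the paternal copy, 1 of 21 rose (Ndn) and 2 fell (Magel2, Nap1l5). Of their 14 maternally expressed partners, 3 rose (Slc22a2, Slc22a3, Kcnq1) and none fell. Of the 8 genes of paternally methylated regions, 1 rose (H19) and 2 fell (Dlk1, Dio3). Tile by tile, 59 of 183 were called, 45 higher and 14 lower, where 36.3% of all tiles were called (32.5% higher and 3.76% lower). Non-overlapping groups were found at 81 tiles (44.3%) and at 56.2% of all. The median difference was 2.71 points over these tiles and 5.0 over all.

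**Figure D4:**
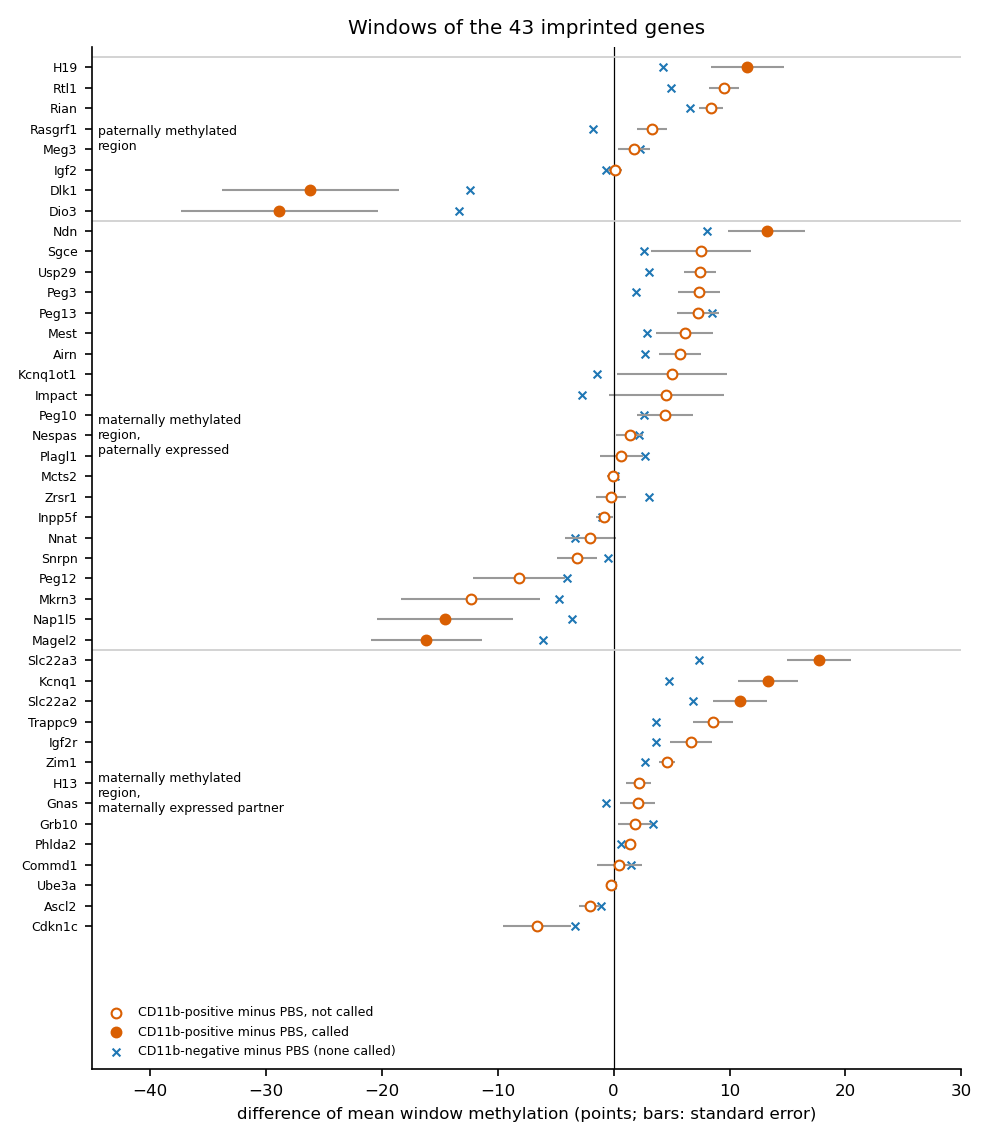
Difference of mean window methylation from PBS (x axis, points) for each of the 43 genes (y axis, grouped by role), with filled circles for called CD11b-positive differences, open circles for the rest, bars for the standard error and crosses for CD11b-negative. Dlk1 and Dio3 lie farthest to the left, at -26.2 and -28.8 points, and Slc22a3 farthest to the right, at 17.7.

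The largest gain of a window was at Slc22a3, an organic cation transporter gene. Its window read 41.9%, 43.6%, 45.5% and 44.4% in PBS, 45.9%, 68.8%, 45.7% and 44.4% in CD11b-negative and 58.6%, 69.4%, 58.2% and 60.1% in CD11b-positive libraries (difference 17.7 points, SE 2.73, adjusted p = 0.00159). All CD11b-positive values lay above all PBS values. Without the flanks the difference was 6.54 points and no longer called. Inside the gene 1 tile of 3 CpGs (chr17:12478001-12479000) rose, from 61.3% ± 3.78 to 77.4% ± 5.28 (adjusted p = 0.00573). A tile before the promoter shown above (chr17:12508001-12509000, 5 CpGs) read 2.68%, 7.31%, 6.14% and 7.86% in PBS libraries 1 to 4. The CD11b-negative libraries read 20.9%, 62.7%, 14.1% and 15.6%. The CD11b-positive libraries read 49.6%, 62.2%, 37.4% and 39.8%. The 3 groups rose in that order by their means, with CD11b-negative library 2 level with CD11b-positive library 2. Its difference of CD11b-positive from PBS was 41.3 points (SE 5.76, adjusted p = 0.000584). With the share of Y calls as a term it was 25.0 points (adjusted p = 0.0170), and this was the 1 tile of the 59 still called, where 0.128% of all tiles were. The neighbouring tile over the promoter (30 CpGs) rose from 2.82% ± 0.888 to 16.3% ± 5.502.

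Slc22a2, a second cation transporter gene of that cluster, rose by 10.9 points (adjusted p = 0.00215), and by 9.04 points, under the minimum, without CD11b-positive library 2. Kcnq1 rose from 42.5% ± 3.99 to 55.9% ± 3.34 (adjusted p = 0.00248), with 9 of its 15 tiles called, all higher. The H19 window, around the maternally expressed noncoding RNA beside Igf2, held 8 CpGs and read 48.7%, 52.9%, 49.6% and 48.6% in PBS, 47.4%, 70.3%, 51.8% and 47.5% in CD11b-negative and 56.6%, 70.1%, 60.02% and 59.3% in CD11b-positive libraries. It rose by 11.5 points (adjusted p = 0.0137), but by 8.68 points without CD11b-positive library 2, and the only H19 tile with enough CpGs averaged 51.7% ± 0.598 in PBS and 49.4% ± 1.44 in CD11b-positive libraries. Ndn, a growth suppressor gene of neurons, was measured at 3 CpGs and rose from 44.0% ± 3.02 to 57.3% ± 5.90 (adjusted p = 0.0381). The Ndn call was lost without PBS library 1, 3 or 4 or CD11b-positive library 3 or 4, with adjusted p from 0.0689 to 0.113, and with the replicate block (adjusted p = 0.0561). Igf2 held tiles that moved in opposite directions. One of 3 CpGs rose from 36.9% ± 8.56 to 68.2% ± 11.4, and one of 21 CpGs fell from 21.4% ± 2.32 to 10.7% ± 4.63.

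Among the losses, Magel2, a ubiquitin ligase regulator gene of the Prader-Willi region, read 80.2%, 68.9%, 78.5% and 75.3% in PBS, 72.0%, 51.3%, 77.6% and 77.7% in CD11b-negative and 56.7%, 49.3%, 66.6% and 65.7% in CD11b-positive libraries over its window. No CD11b-positive library overlapped a PBS library, and the window fell by 16.2 points (SE 4.80, adjusted p = 0.00860). Nap1l5, a retrogene for a nucleosome assembly protein, read 85.9%, 66.8%, 80.3% and 80.5% in PBS, 76.6%, 55.8%, 82.0% and 84.6% in CD11b-negative and 57.3%, 57.0%, 74.6% and 66.4% in CD11b-positive libraries. These groups overlapped, and the fall of 14.6 points (adjusted p = 0.0315) was lost without PBS library 1, 3 or 4 or CD11b-positive library 1 or 2 (adjusted p from 0.0672 to 0.0898). The tile at the start of Zim1, a maternally expressed zinc finger gene, fell from 31.4% ± 5.56 to 14.98% ± 7.76 (adjusted p = 0.0132). The Zim1 call was lost with all 12 libraries in 1 fit (adjusted p = 0.0505), and with the Y share as a term the difference was -2.54 points. The windows of Dlk1 and Dio3 fell by 26.2 and 28.8 points (SE 7.62 and 8.52, adjusted p = 0.00642 and 0.00705), without overlap of the groups. With all 12 libraries in 1 fit the Dio3 window missed the test (adjusted p = 0.0514).

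The other 34 windows were not called, and they ranged from -12.3 points at Mkrn3 (adjusted p = 0.0506) to 9.54 points at Rtl1. With the replicate block the Mkrn3 window was called (adjusted p = 0.00934). Windows of the germline loci Plagl1, Grb10, Zrsr1, Gnas, Nespas and Inpp5f differed from PBS by 0.645, 1.83, -0.225, 2.07, 1.39 and -0.792 points. Airn, the noncoding RNA that silences Igf2r, differed by 5.70 points, and Ascl2, a transcription factor gene of placenta and stem cells, by -2.08 points around a level of 9.27%. The near-50% stretch at the Airn start (chr17:12741001-12743000, 16 CpGs) had at most 8 CpGs in a tile, so it was not among the CpG-rich stretches. It averaged 57.7%, 60.01% and 61.2% in PBS, CD11b-negative and CD11b-positive libraries, with overlap and without a call. In PBS 12 of its CpGs lay from 35% to 65%. Several of the 34 windows still held a called tile with 3 or 4 CpGs. Sgce, a sarcoglycan gene, rose from 55.9% ± 3.27 to 79.6% ± 9.59 over 1 such tile (adjusted p = 0.00493). In Trappc9, which codes for a part of a vesicle tethering complex, a tile rose from 37.0% ± 11.1 to 67.7% ± 14.8 (adjusted p = 0.0136). Tiles in Rasgrf1 and Igf2r rose by 27.8 and 29.8 points (adjusted p = 0.00580 and 0.00672).

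CD11b-negative cells against PBS gave no called window or tile at imprinted genes by the quasi-binomial test or by edgeR, where 0.0% of all were called. At an unadjusted p under 0.05 there were 3 of 43 windows (7.48% of all windows) and 16 of 183 tiles (9.92% of all tiles). The groups did not overlap at 4 windows (8.48% of all windows) and 19 tiles (10.6% of all tiles). The Dlk1 and Dio3 stretches averaged 39.96% ± 26.3 and 43.1% ± 25.2 in this group, with library 2 at 3.49% and 6.49%. Leaving library 2 out gave no call either.

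CD11b-positive against CD11b-negative cells, both from treated mice, likewise gave no called window or tile by either test (0.0% of all called), with 3 windows and 12 tiles at an unadjusted p under 0.05 (17.4% of all windows and 10.9% of all tiles). The groups did not overlap at 1 window (4.28% of all) and 2 tiles (2.57% of all). The same-numbered libraries of these groups deviated together, but numbers 1, 3 and 4 did so as much with another number, so only number 2 matched itself best. Library 2 of the CD11b-positive and CD11b-negative groups also deviated with PBS library 2 (r = 0.730 and 0.772), from other mice. The numbers are thus not established as pairs. With the number as a block 3 windows passed, where 5.05% of all did (3.92% higher and 1.13% lower). Slc22a3 was 10.4 points higher (adjusted p = 0.0441), and Magel2 and Dio3 were lower (differences of -10.1 and -15.5 points, adjusted p = 0.0490 and 0.0235). With the block 18 tiles passed, 9 higher and 9 lower, where 13.5% of all tiles passed (11.5% higher and 1.97% lower). At the Dio3 tile of 73 CpGs the differences within pairs 1 to 4 were -16.4, -0.922, -24.7 and -20.6 points, and at the Slc22a3 tile 28.7, -0.499, 23.3 and 24.3. Pair 2 showed almost no difference at either. Leaving out CD11b-negative library 2, without the block, gave 8 windows and 27 tiles, where 21.6% of all windows and 20.4% of all tiles were called. Leaving out both libraries numbered 2 gave 6 and 36, where 17.4% and 20.4% were called.

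With the share of Y calls as a term, none of the 9 windows was called, nor any of the 30223 windows. The differences of the Dlk1 and Dio3 windows were then -1.36 and -0.329 points, and those of Magel2, Nap1l5 and H19 -1.22, 0.021 and 1.81 points. Slc22a2, Kcnq1, Ndn and Slc22a3 differed by 3.27, 6.31, 4.14 and 10.1 points. Some tile differences moved less with the term. The called Mest tile differed by 11.5 points without the term and 12.1 with it, and the Snrpn tile by -11.5 and -8.45, although neither was called with it. The share differs between the groups, so its contribution and that of the group cannot be told apart in these fits. At the Grb10 and Zrsr1 stretches the libraries with the highest share, 40.2 and 41.3 calls per 1000000 autosomal calls, read 59.4% and 61.7%, and 54.2% and 48.2%.

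**Figure D5:**
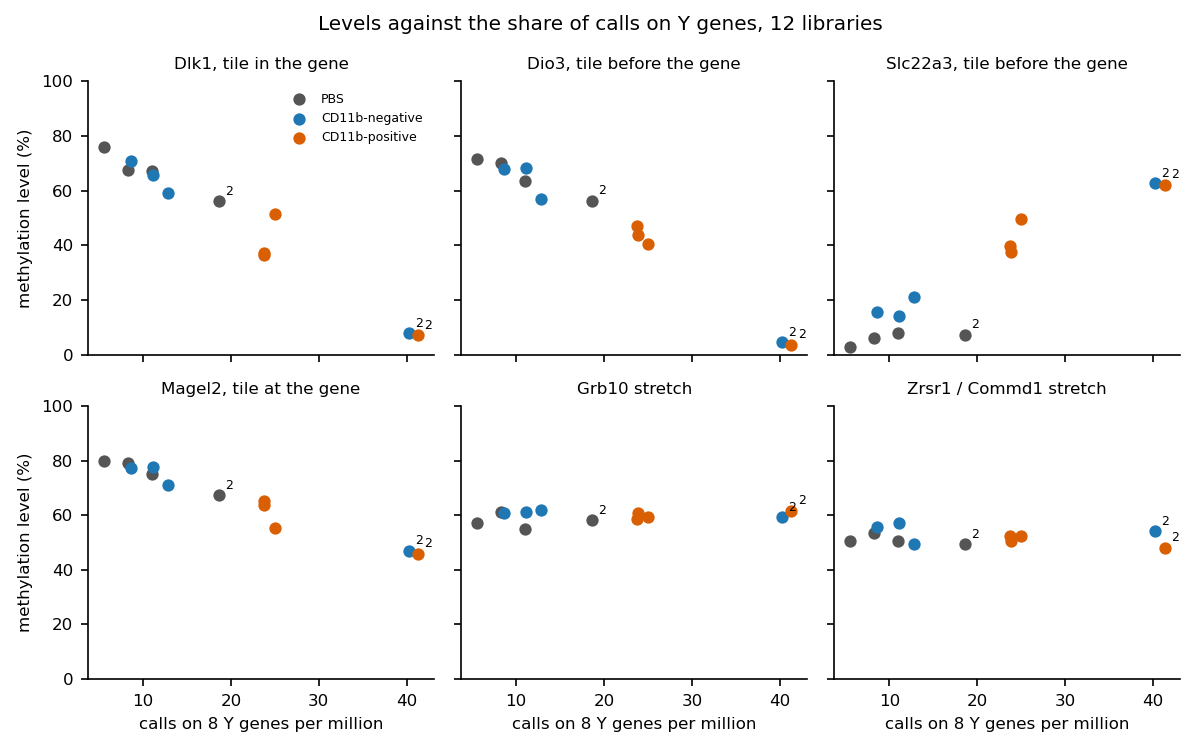
Methylation level (y axis, %) of 4 called tiles and 2 germline stretches against the share of calls on Y genes (x axis, calls per 1000000 autosomal calls) in the 12 libraries, with library 2 of each group marked. The Dlk1, Dio3 and Magel2 tiles are lowest and the Slc22a3 tile highest at 40.2 and 41.3 calls, and the Grb10 and Zrsr1 stretches stay level.

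Of 22 genes that keep or erase imprints, 21 had a measured window, of which 3 rose and 2 fell in CD11b-positive cells against PBS, with a median difference of 1.17 points. Over all windows 25.9% rose and 3.42% fell. Zfp57 fell from 22.3% ± 3.89 to 11.95% ± 4.53 (23 CpGs, adjusted p = 0.00835), and Atrx, a chromatin remodeller gene on the X chromosome, from 37.0% ± 5.86 to 17.8% ± 8.65 (adjusted p = 0.00895). Dnmt3l, the cofactor of imprint establishment in germ cells, rose from 43.2% ± 5.02 to 63.7% ± 8.96 (adjusted p = 0.00485), and Ctcfl and Dppa3 also rose. The windows of Dnmt1, the maintenance methyltransferase, and of Trim28 were not called (4.50 and 4.60 points). These windows give methylation and not expression.

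Windows at marker genes of other cells were read against the same shares of all windows, 25.9% higher and 3.42% lower. For granulocyte and monocyte precursors 4 of 9 measured windows rose, with Ly6c2 moving most, from 20.7% ± 7.87 to 57.7% ± 18.2 over 3 CpGs. For T cells 5 of 8 rose and 1 fell (Bcl11b, from 68.9% ± 4.88 to 56.2% ± 7.57), for B cells 3 of 8 rose, for erythroid cells 3 of 6 rose, and for endothelial and stromal cells 2 of 8 rose and 1 fell. None was called in the other comparisons. The part of a changed mixture of cells in the values at imprinted genes was not tested.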

How the data were processed

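The files deposited by the authors hold raw counts of methylated and unmethylated calls at the CpG positions of either strand that had calls, 1 library per file. The submitters' processing notes name cutadapt 2.7, Trim Galore 0.6.4, methylKit 1.20.0 and Bismark, on build mm10; Bismark's version, any removal of duplicates and the efficiency of conversion were not stated. Copies of one molecule may be counted more than once, and unconverted cytosines would raise all levels.

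Calls of both strands were summed, and CpGs with at least 10 calls in all 12 libraries were kept. A level is methylated calls over all calls of a window or tile, averaged over libraries. Gene bounds came from RefSeq (GRCm38.p6; Nespas is listed there as Gnasas1), which gives no exons here. Windows and tiles were tested with a quasi-binomial logistic model on the 8 libraries of the groups compared. The dispersion (Pearson) was shrunk by empirical Bayes within bins of mean methylation (edges 5%, 20%, 80% and 95%) and not allowed under 1, with an F test and Benjamini-Hochberg adjustment over all windows or all tiles (Python 3.11.15, numpy 2.4.6, scipy 1.17.1). edgeR 4.0.16 in R 4.3.3 was an alternative. On simulated data (30223 windows, CD11b-positive against PBS) 71 of 100 shifts of 15 points and 95 of 100 shifts of 30 points were found, beside 1 false call. Simulating CD11b-negative against PBS gave 56, 73 and 3, and the sorted groups 41, 78 and 2. Each library was drawn independently at each window, so the simulation holds no variation of a library shared across windows. It does not measure false calls from such variation.

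Deviations from the group means over all tiles correlated between same-numbered CD11b-positive and CD11b-negative libraries (r = 0.159, 0.926, 0.654 and 0.682 for numbers 1 to 4), each above the 0.1 set for taking numbers as pairs. Libraries with different numbers reached 0.211 for CD11b-positive 1, 0.664 for 3 and 0.690 for 4, so the pairing is a hint from the data for these, and number 2 alone matched itself best. Number 2 also correlated with PBS library 2 (r = 0.730 for CD11b-positive and 0.772 for CD11b-negative), although PBS libraries came from other mice. The match of number 2 therefore does not establish a pair. Against PBS number 4 gave -0.0990 and -0.131, and comparisons with PBS were not taken as paired. Any 2 libraries had identical calls at 0.283% to 0.951% of the common CpGs, so no file was a copy of another.

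The members and lists were chosen with earlier results of these data known. Named in detail are genes with a CpG-rich near-50% tile, genes with a called window or tile (the called tile with the largest difference), a set of textbook loci, and list members with the largest called gain and loss. The values of 1 listed gene are not reported here.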

Additional observations from a re-analysis of the deposited data

Results flagged for a closer look

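In 14 of 186 groups of 4 libraries tested, 1 library lay far from the other 3; chance alone marks about 1 in 20 such groups, so part of these would appear without any cause. Library 2 of the sorted groups accounts for 6. CD11b-negative library 2 read 90.8% over the Rtl1 window, where the others ran from 79.8% to 81.6%. It read 68.8% over the Slc22a3 window, where the others ran from 44.4% to 45.9%, and 25.3% over the Mkrn3 stretch, where they ran from 59.6% to 65.6%. CD11b-positive library 2 read 2.63% at the Dlk1 stretch (others 30.9% to 32.8%), 6.50% at the Dio3 stretch (others 31.2% to 34.7%) and 86.1% at the stretch beside Kcnq1 (others 75.8% to 76.4%).

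The other 8 concern different libraries. CD11b-positive library 1 read 60.6% at the Igf2r start stretch, where the others ran from 55.5% to 56.1%. PBS library 1 was low over the Kcnq1 window, at 36.6%, and over the Sgce window, at 52.7%. PBS library 2 was high over the Ndn window, at 48.5%. PBS library 3 was high over the windows of Snrpn (70.5%), Nespas (56.7%) and Ube3a (1.05%), and CD11b-negative library 3 over that of Ube3a (0.884%).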

How the results depend on the processing

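For CD11b-positive against PBS, 9 imprinted windows were called, 5 of them with all 12 libraries in 1 fit and 0 with the share of Y calls as a term, and 6 to 10 when 1 library was left out. Of the 59 called tiles, 1 remained with the Y term, which also gave 1 tile for CD11b-negative against PBS, and 30 remained when tiles needed at least 5 CpGs, which tests fewer tiles. Leaving out 1 library gave 48 to 62. For CD11b-positive against CD11b-negative, leaving out 1 library gave 0 to 8 windows and 0 to 27 tiles, the higher numbers without CD11b-negative library 2. The replicate block gave 3 windows and 18 tiles there, and leaving out both libraries numbered 2, chosen after seeing the data, gave 6 and 36. In the comparisons with PBS the block moved no count by more than 1.5 times. Near-50% tiles numbered 72, and from 52 to 84 with other settings. With the Y term 5 of 36 named regions changed sign (Nap1l5 window and tile 0.021, Dio3 tile 3.73, Mkrn3 tile 4.28 and Peg12 tile 0.22 points) and 30 lost the call. The cause was not tested. A minimum of 5 or 20 calls, windows with no flank, tiles of 500 bp and edgeR kept the counts for CD11b-positive against PBS within 1.5 times. Windows with few CpGs, such as Ndn with 3, rest on few calls.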

Other observations

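Of 43 further imprinted genes, 39 had a measured window, and in CD11b-positive cells against PBS 5 of these rose and 3 fell, with a median difference of 3.13 points. Over all windows 25.9% rose and 3.42% fell. Gabra5, a GABA receptor subunit gene, fell from 59.98% ± 8.20 to 29.7% ± 15.6 (SD, n = 4), with adjusted p = 0.00830 by the quasi-binomial test. Gabra5 read 67.5%, 48.8%, 64.5% and 59.1% in PBS, 49.98%, 8.24%, 62.6% and 64.5% in CD11b-negative and 33.0%, 6.90%, 38.2% and 40.9% in CD11b-positive libraries, so that library 2 was the lowest of both sorted groups. Begain, which neighbours Dlk1, fell from 72.8% ± 6.36 to 50.5% ± 12.5 (adjusted p = 0.00864). Th, the tyrosine hydroxylase gene beside Igf2, rose from 49.8% ± 3.67 to 71.6% ± 5.63 over 5 CpGs (adjusted p = 0.00434), and Htr2a, Qpct, Art5 and Gatm rose by 18.9, 19.9, 12.4 and 14.6 points. None of the 39 was called in the other comparisons.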
